A study of Mus musculus with 8 samples.

Results

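Chromosome 15 was described along its whole length in 8 mouse liver tumors. Its members were all probes whose position in the array design lies on chromosome 15, 6681 of the 170305 different probes, carried by 6877 of the 174305 spots that are not controls. On mm9 they ran from position 3114799 to position 103460314, over 100.3 Mb, and so covered the chromosome from the first probed base near the centromere to the last one near the telomere. Neighbouring probes were a median of 10.97 kb apart, and the widest gap between 2 of them was 79.1 kb. Each probe is a designed stretch of 60 bases.

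DNA from 1 liver tumor of each of 8 male FAH-/- mice carried Cy5, and it competed on each array with Cy3-labelled liver DNA pooled from 6 male FAH+/+ littermates. FAH is the last enzyme of tyrosine breakdown, and mice without it need NTBC (nitisinone), a drug that stops the pathway before its toxic products form. The tumor mice received drinking water with NTBC, normally 7.5 mg/L, and were kept on 2.5% of that dose for 6 to 12 months. All 8 tumors form 1 group and are numbered here in the order of deposition. The pool was a single sample with no spread of its own, the dyes were never swapped, and no tumor-free liver of an FAH-/- mouse was on an array, so a difference between mutant and wild-type mice that is not tumor-specific cannot be told apart from a change in the tumor. Tumor tissue can also hold normal cells, so a change in few cells and a smaller change in many cells cannot be told apart.

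In array comparative genomic hybridization, a stretch with more copies in tumor DNA than in the pool shifts the log2 ratios of all its probes upwards. The centromere of mouse chromosome 15 lies at one end. A whole-chromosome gain arises when a cell receives an extra homologue at division, and it lifts all probes alike. A change with a breakpoint inside the chromosome appears as a step between neighbouring probes. Chromosome 15 carries Myc, which encodes a transcription factor of growth and division, and an extra chromosome 15 is well known from mouse lymphomas.

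Values are given on a pair of scales. On the first, the median of each array was set to 0. On the second, a pattern of high and low probes that all arrays shared was subtracted, and 0 was then placed at the commonest level among the segments of the tumor. The subtraction lowered the noise between neighbouring probes to between 0.12 and 0.21 in log2, against 0.39 to 0.65 with the pattern kept. The spots of chromosome 15 had median signals of 4.28 to 9.80 times their local background for tumor DNA and 4.36 to 11.6 times for the pool. Both channels were well above background at 97.9% to 99.9% of them, and 0 were saturated. The number of arrays limits the precision.

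Chromosome 15 was high over its whole length in tumors 4, 5, 6 and 8, high in tumor 3 in all but a first stretch, shallowly high in tumor 2 and near 0 in tumors 1 and 7. With the pattern removed, its mean log2 ratio was -0.02 in tumor 1, 0.12 in tumor 2, 0.27 in tumor 3, 0.31 in tumor 4, 0.69 in tumor 5, 0.39 in tumor 6, -0.06 in tumor 7 and 0.32 in tumor 8. The standard error over probes was 0.0015 to 0.0032, so most pairs of tumors differed by many standard errors, and tumors 4 and 8 were the closest pair. Tumor 5 stood highest, tumors 3, 4, 6 and 8 lay between 0.27 and 0.39, and tumors 1 and 7 lay at or just under 0. The probe errors treat neighbouring probes as independent and leave out any error in where 0 is set.

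On array medians the same means were 0.20 in tumor 1, 0.26 in tumor 2, 0.47 in tumor 3, 0.45 in tumor 4, 0.71 in tumor 5, 0.65 in tumor 6, 0.03 in tumor 7 and 0.39 in tumor 8. All 8 tumors were above 0 on this scale, and 6 of 8 were on the other. On array medians, chromosomes 2, 11 and 16 were likewise above 0 in all 8 tumors. With the pattern removed, chromosomes 2 and 11 averaged -0.0042 and -0.0056 over the tumors. The gap between the scales differed by tumor, since with the pattern kept the commonest segment level lay between 0.02 above the array median in tumor 5 and 0.25 above it in tumor 6. A measure that does not use a zero set by hand is the chromosome 15 mean minus the median of the other autosomes in the same tumor. It was -0.01 in tumor 1, 0.14 in tumor 2, 0.28 in tumor 3, 0.33 in tumor 4, 0.68 in tumor 5, 0.41 in tumor 6, -0.02 in tumor 7 and 0.32 in tumor 8. Chromosome 15 was thus the highest of 19 autosomes in tumors 2, 3, 4, 6 and 8. In tumor 2 its lead was very small, since chromosomes 15 and 17 both averaged 0.12 there with the pattern removed. Their order in that tumor is therefore not settled. Chromosome 15 was the second highest in tumor 5, where chromosome 16 averaged 0.71, and stood at rank 15 in tumor 1 and rank 12 in tumor 7.

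**Figure D1:**
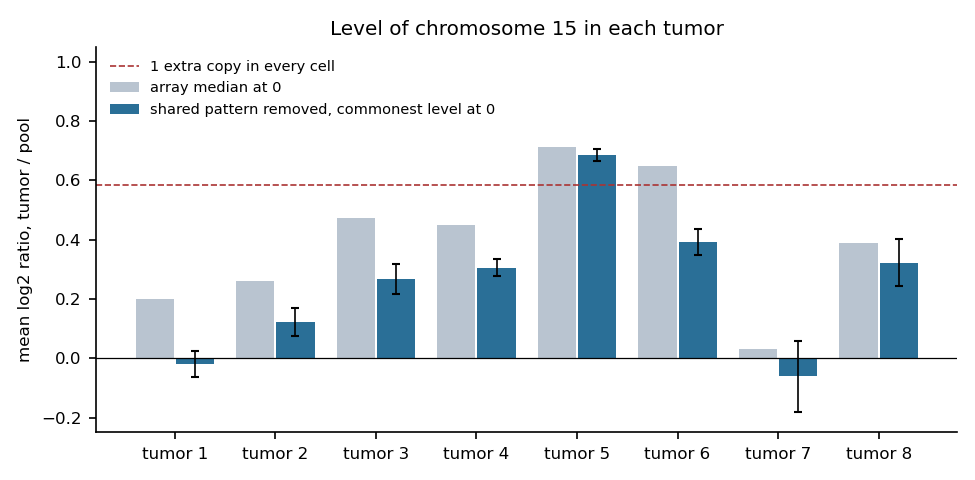
Mean log2 ratio of tumor over pool for chromosome 15 in each of the 8 tumors, on the scale with 0 at the commonest level (pattern removed) and on array medians. With the pattern removed the values run from -0.06 in tumor 7 to 0.69 in tumor 5, and on array medians from 0.03 in tumor 7 to 0.71 in tumor 5.

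Over the 8 tumors the chromosome averaged 0.40 ± 0.23 on array medians (SD, n = 8), and the two-sided exact permutation p from sign flips was 0.0078, adjusted 0.039 over 19 autosomes and X. This is the smallest exact p that 8 tumors can give, and 4 of the 20 chromosomes (20%) passed, namely 2, 11, 15 and 16. With any 1 tumor left out, the adjusted exact permutation p was 0.052 to 0.078, since 7 tumors cannot give an exact p under 0.016. With the pattern removed the mean was 0.25 ± 0.24 (SD, n = 8), and the exact permutation p was 0.031, adjusted 0.10. Relative to the other autosomes the mean was 0.27 ± 0.23 (SD, n = 8), with an exact permutation p of 0.031, adjusted 0.16. On these last measures 0 of 20 chromosomes (0%) passed, so whether the mean over all tumors was called depended on where 0 was placed. With the pattern kept, it was 0.64 with 0 at the density peak of each array (exact permutation p 0.0078, adjusted 0.011). An adjusted value so close to the smallest exact p arises only when most of the 20 chromosomes reach that p. The call on that scale was therefore not particular to chromosome 15. With 0 at the commonest level and the pattern kept, the chromosome 15 mean was 0.24 (adjusted exact permutation p 0.069).

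If the commonest level of a tumor stood for 2 copies, which was not measured, the chromosome 15 mean would equal 1.22 extra copies per cell in tumor 5, 0.63 in tumor 6, 0.50 in tumor 8, 0.47 in tumor 4, 0.41 in tumor 3 and 0.18 in tumor 2. With an extra copy present in every cell, the log2 ratio would be 0.58. Tumor 5 was above that value in all 101 bins of 1 Mb, and 0 of 101 bins reached it in any other tumor. In several tumors the shift of chromosome 15 was close in size to that of the lowest autosome. On the same scale of copies, tumor 4 had 0.47 for chromosome 15 and -0.46 for chromosome 12, tumor 8 had 0.50 and -0.47 for the same pair, tumor 3 had 0.41 and -0.39 for chromosome 3, and tumor 6 had 0.63 and -0.58 for chromosome 8. Tumor 1 had the deepest chromosome 12, at -0.77 copies, with chromosome 15 at -0.03, and tumor 2 had 0.18 and -0.21 for the same pair. Tumor 5 had 1.22 and, for its lowest autosome, -0.03, and tumor 7 had -0.08 and -0.15. The lowest autosome was picked by its value in each tumor, so these pairs are a description.

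In tumors 4, 5 and 6 the level was raised from one end of the chromosome to the other. Each of these tumors, like tumors 1 and 2, was a single segment with 0 internal steps when the pattern was removed. Tumors 2 and 5 had 2 steps each at a split statistic of 5, and likewise when only probes well above background on all arrays were used. With the pattern kept, tumor 2 had 3 steps, 2 of which, of 0.28 and 0.27, enclosed chr15:28252578-31706473 (209 probes) at a level of -0.10. The bins from 28000001 to 32000000 were also low over all tumors on that scale, with means of -0.20 to -0.12 from the chromosome mean. With the pattern removed, these bins stood at 0.04 to 0.11 in tumor 2. In tumor 5 the 1 Mb bins, which hold 24 to 103 chromosome 15 probes each (median 68), had a lowest level of 0.64, a median of 0.68 and a highest level of 0.73. In tumor 6 the bins were 0.25 at the lowest, 0.39 at the median and 0.47 at the highest, and in tumor 4 they were 0.23, 0.31 and 0.38. Every bin of these tumors was thus at least 0.2 above the commonest level of its tumor. Over all bins of the autosomes and X together, 16% lay that high in tumor 5, 3.99% in tumor 6 and 5.02% in tumor 4. In tumor 6 all such bins were on chromosome 15, since 0 of the 2430 bins elsewhere reached 0.2.

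In tumor 8, 98 of 101 bins reached 0.2, against 6.08% of all 2531 bins, and the bins ran from 0.17 to 0.54 with a median of 0.34. In tumor 3, 94 of 101 bins did so, against 3.71% of all bins and 0 of 2430 elsewhere, and its bins ran from 0.00 to 0.35 with a median of 0.26. Tumor 2 had 6 bins at 0.2 or more, against 0.277% of all bins, and its bins ran from -0.01 to 0.24 with a median of 0.13. In tumor 2 the bins lay on both sides of the 0.2 threshold while 100 of 101 were above 0, so its level was too shallow for the threshold to describe. Between 0.18 and 0.22 there were 10 bins in tumor 2, 14 in tumor 3 and 5 in tumor 8. In tumors 1 and 7, 0 bins reached 0.2 on chromosome 15, against 0.79% and 0.237% of all bins. The bins of tumor 1 ran from -0.12 to 0.07, with 31 of 101 above 0. Those of tumor 7 ran from -0.33 to 0.19, with 45 of 101 above 0, which is the widest range of the 8 tumors.

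**Figure D2:**
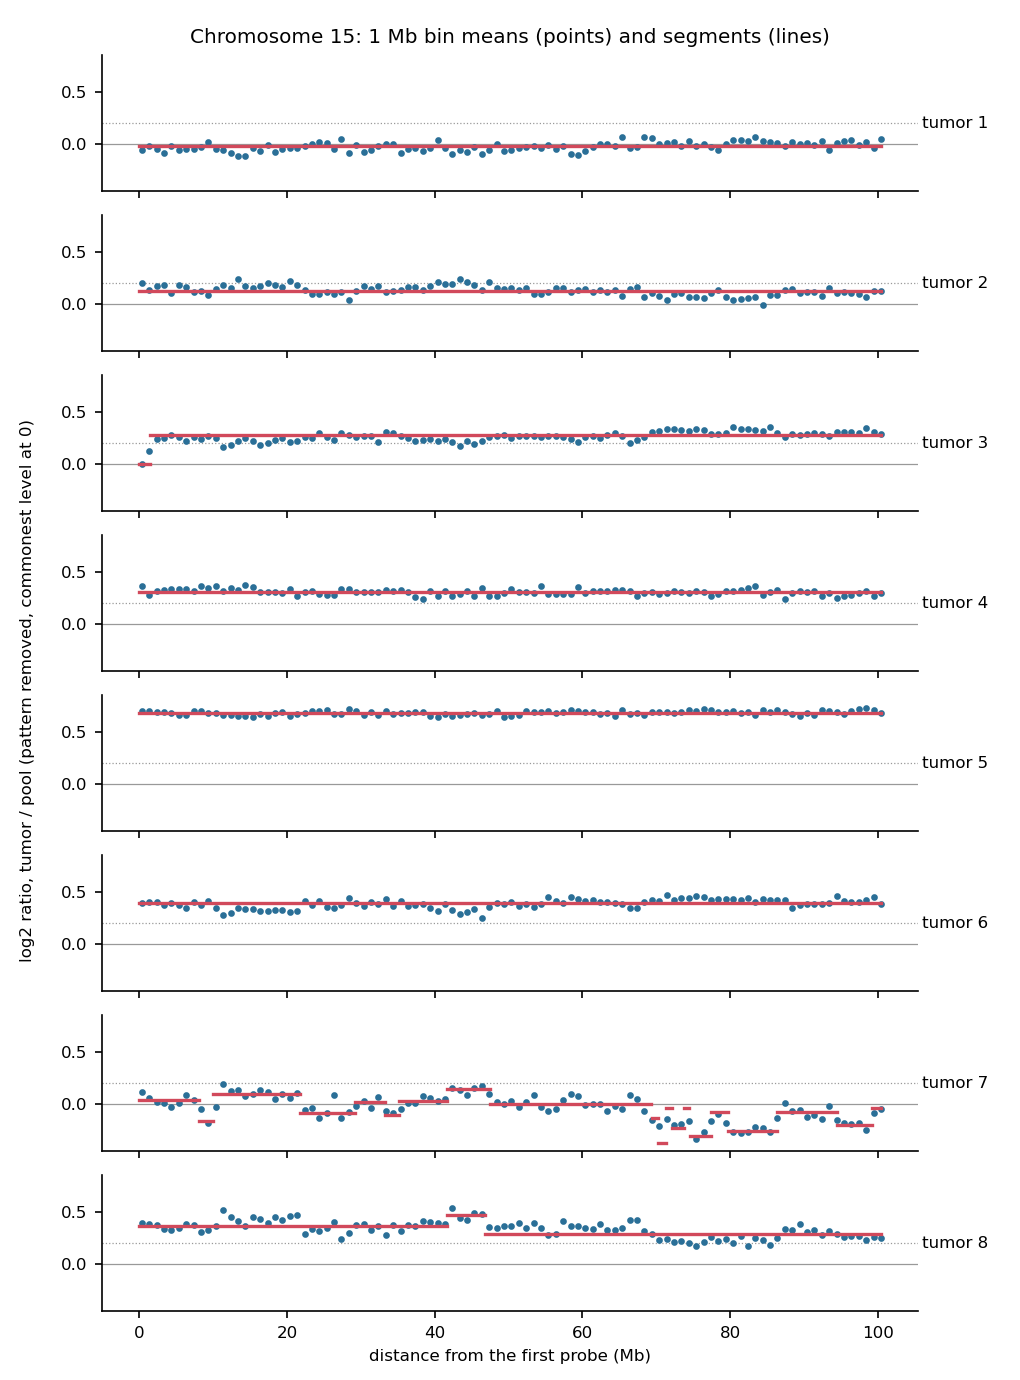
Log2 ratio of tumor over pool in 1 Mb bins against distance from the first probe of chromosome 15 in Mb, 1 panel per tumor, pattern removed; points are bins and lines are segments. Tumors 1, 2, 4, 5 and 6 are single segments, tumor 3 has 1 step near the start, and tumor 7 has 19 steps.

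Tumor 3 had a single step, close to the centromeric end. The first 100 probes, chr15:3114799-4533031 on mm9 (1.42 Mb), had a mean log2 ratio of 0.00 ± 0.015 (SE over probes), against 0.27 over the remaining 98.9 Mb. The step lay in the 11.1 kb between the probe ending at 4533031 and the probe starting at 4544146, and its size was 0.27. The 20 probes just before it averaged 0.01 ± 0.12 and the 20 just after it averaged 0.27 ± 0.15 (SD over probes). On this scale the proximal end of the chromosome was at the commonest level of tumor 3, and the raised level started beyond it. With the first principal component of the bin profiles also removed, the stretch stood at 0.05 ± 0.015 (SE over probes) against 0.27, and on array medians at 0.27 where the commonest level was 0.20.

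The other tumors showed no such drop at the same place. The first stretch minus the rest of the chromosome was -0.27 in tumor 3. It was -0.03 in tumor 1, 0.06 in tumor 2, 0.04 in tumor 4, 0.02 in tumor 5, 0.01 in tumor 6, 0.15 in tumor 7 and 0.08 in tumor 8. In tumors 4, 5, 6 and 8, which also had the chromosome high, the first stretch itself stood at 0.34, 0.70, 0.40 and 0.40, so it was at least as high as the rest. On array medians the difference was -0.21 in tumor 3, from a level of 0.27 in the stretch against 0.48 in the rest, and 0.03 to 0.19 in the other 7 tumors. Within tumor 3, the same difference for the first 100 probes of the other 18 autosomes ran from -0.06 to 0.23 with a median of -0.01, and 0 of them lay lower than chromosome 15. The place of the step was chosen from tumor 3, so its values there are a description with no test.

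The step of tumor 3 was found at the same pair of probes with the pattern taken from the other 7 arrays (stretch minus rest -0.30) and with the deposited table (-0.27). With normexp background correction (-0.27) it lay between 4497579 and 4508389, and without tumors 7 and 8 between 4523576 and 4532972. It was not called with the pattern kept, where the noise was 0.63 against 0.12 and tumor 3 had 0 steps, although the difference there was -0.21. The deposited files do not place genes on the probes, and the annotation used here is of another build, so no gene is assigned to either side of the step.

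**Figure D3:**
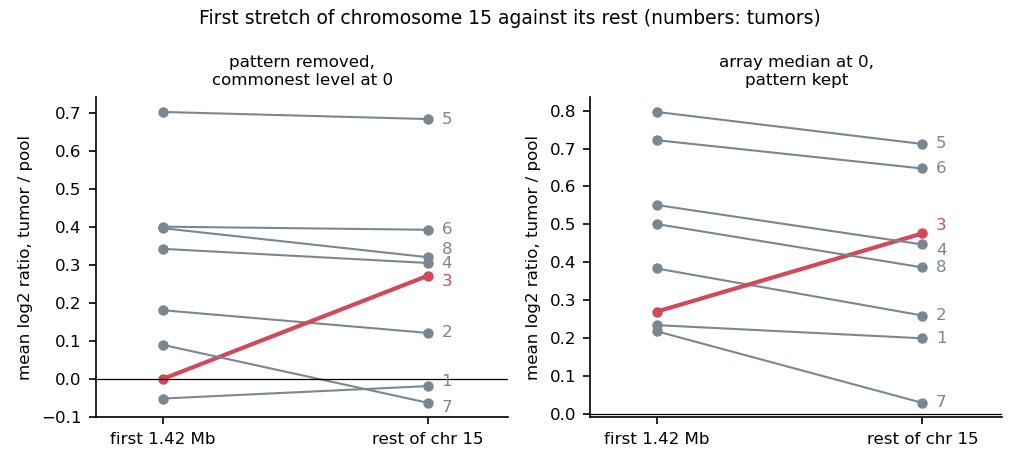
Mean log2 ratio of tumor over pool in the first 1.42 Mb of chromosome 15 and in the rest of the chromosome, 1 line per tumor, on both scales. In tumor 3 (red) the first stretch lies 0.27 below the rest with the pattern removed and 0.21 below it on array medians, and in tumors 2, 4, 5, 6, 7 and 8 it lies above the rest on both.

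Tumor 7 had 19 of the 22 steps found on chromosome 15 with the pattern removed, tumor 8 had 2 and tumor 3 had 1. Per 100 Mb this was 18.9 steps on chromosome 15 against 17.2 on the other autosomes in tumor 7, and 1.99 against 4.51 in tumor 8, so chromosome 15 of tumor 7 had a step density close to that of its other autosomes. Over the 8 tumors, the step density of chromosome 15 minus that of the other autosomes was -1.17 ± 1.40 per 100 Mb (SD, n = 8). It was lower on chromosome 15 in 7 of 8 tumors, and the two-sided exact permutation p from sign flips was 0.070, adjusted 0.55, so no difference was called. The mean turned to 0.84 with the pattern kept. Without tumor 7 the number of steps was 4, and without tumors 7 and 8 it was 1. Tumor 7 also had the dimmest tumor channel, at 4.28 times the background against 6.41 to 9.80 times in the other tumors, and the highest noise with the pattern removed, 0.21. Its noise with the pattern kept was 0.39, as in tumor 8, against 0.62 to 0.65 in tumors 1 to 6. The part of these in its steps was not tested.

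Of the steps in tumor 7, 6 were at least 0.2 in size. From the centromere onwards, the level changed by -0.20 between 11271927 and 11279687 and by 0.26 between 13126590 and 13147632. It changed by -0.24 between 73377605 and 73391866 and by 0.34 between 74430037 and 74449111. The last of these were a change of -0.27 between 77584654 and 77601327 and one of 0.23 between 80517183 and 80527016. Each pair encloses a stretch below the chromosome mean. The other 13 steps of tumor 7 ran from 0.11 to 0.195 in size, so the largest of them lay just under the threshold. With the pattern kept, 3 of the 19 steps were found within 100 kb, 1 of them among the 6 larger ones, and with normexp background correction 7 of the 19 and 0 of the 6 were found.

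The highest segment of tumor 7 was chr15:44768242-50601847 (5.83 Mb, 273 probes), 0.20 above its chromosome mean. The lowest was chr15:73391866-74430037 (1.04 Mb, 59 probes), 0.31 below it. Tumor 8 was made of 3 segments, with levels of 0.36, 0.47 and 0.28, and its highest one began at the same probe as that of tumor 7 and ended at 49871929. The highest stretch of tumor 7 was 0.14 above the chromosome mean in tumor 8 and 0.08 above it in tumor 2. In tumors 1, 3, 4, 5 and 6 it lay between -0.08 and -0.01 of that mean. The lowest stretch of tumor 7 was likewise 0.18 below the chromosome mean in tumor 8 and 0.11 below it in tumor 2, and 0.12 above it in tumor 3. Tumors 2, 7 and 8 thus lay above their means in the first of these stretches and below them in the second. Tumors 1, 3, 4 and 6 lay the other way in both, tumor 4 by only 0.01 and 0.02, and tumor 5 lay below its mean in both. With the pattern kept, all tumors lay above their means in the first stretch, by 0.04 to 0.26. In the second, tumors 2, 7 and 8 still lay below (-0.06, -0.29 and -0.15) and the others above.

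With the pattern removed, a split close to that of these stretches was seen along the whole chromosome. Tumor 4 stood apart and tumor 5 stood beside tumors 1, 3 and 6. Between tumors 2, 7 and 8, the profiles of 101 bins, less their chromosome means, had correlations of 0.72 to 0.90. Among tumors 1, 3, 5 and 6 the correlations were 0.23 to 0.60, and between these sets they were -0.82 to -0.48. Tumor 4 had correlations of -0.18 to 0.01 with the others. On the other autosomes the same pairs gave 0.55 to 0.78, -0.16 to 0.37 and -0.65 to -0.14. These correlations describe bins that share probes, a pool and base composition. With the pattern kept, every pair of tumors had a correlation above 0, from 0.20 to 0.93, and the pairs between the sets had 0.20 to 0.85. The subtraction takes out each probe's median over the same arrays, so opposite signs between tumors follow in part from it. The sets were read from the data and are not groups of the study, and each slide held tumors of both.

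Except in tumor 4, these profiles moved with the brightness of the pool channel and with the density of probes. The pool signal is also the denominator of each log ratio, so the profile and the pool signal share a term. Across the 101 bins, the correlation of the profile with the pool signal was -0.60 in tumor 2, -0.57 in tumor 7 and -0.67 in tumor 8, against 0.32 in tumor 1, 0.59 in tumor 3, 0.35 in tumor 5 and 0.64 in tumor 6. It was -0.03 in tumor 4. On the other autosomes it was -0.41, -0.44 and -0.55 in tumors 2, 7 and 8. There it was 0.05, 0.29, 0.23 and 0.52 in tumors 1, 3, 5 and 6, and -0.02 in tumor 4. With the number of probes per bin of chromosome 15, the correlation was -0.67 in tumor 7 and -0.63 in tumor 8, against 0.61 in tumor 6, and -0.07 in tumor 4. The first principal component of the bins of all chromosomes, which held 47.9% of the variation left after the pattern was removed, had loadings of 0.74 in tumor 7, 0.46 in tumor 8 and 0.24 in tumor 2, and of -0.24 to -0.05 in the other tumors. When it was subtracted, an alternative chosen after seeing the data, tumor 8 had 0 steps in place of 2 and tumor 7 had 10 in place of 19. In tumor 7, however, the steps of at least 0.2 were 8 in place of 6, the largest was 0.46 in place of 0.34, and 5 of the 19 steps, 2 of the 6 larger ones among them, were found again within 100 kb. The highest stretch of tumor 7 then differed from the chromosome mean by -0.02 to 0.02 in all 8 tumors, and its lowest stretch was 0.19 below the mean in tumor 7. The component was computed from these same bins, chromosome 15 included, and tumor 7 had the largest loading. Flatter profiles after its subtraction thus follow in part from the subtraction, and the source of the component was not tested. The step of tumor 3 was still found, at the same probes, with a size of 0.22.

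How uneven the chromosome was can be given as the SD of its bins. It was 0.042 in tumor 1, 0.047 in tumor 2, 0.051 in tumor 3, 0.028 in tumor 4, 0.020 in tumor 5, 0.044 in tumor 6, 0.12 in tumor 7 and 0.079 in tumor 8. The median over the other autosomes of the same tumors was 0.043, 0.040, 0.038, 0.032, 0.026, 0.046, 0.096 and 0.068. The difference averaged 0.0055 ± 0.010 (SD, n = 8) and was above 0 in 4 of 8 tumors, and the two-sided exact permutation p from sign flips was 0.19, adjusted 0.34. No difference was called, and the mean difference was -0.0029 with the principal component subtracted. Tumor 5, with the highest level, had the smallest SD. With the principal component subtracted, all 8 tumors had an SD of 0.018 to 0.032, which follows in part from the subtraction.

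The distal and the proximal parts of the chromosome, split at its middle, were compared next. The distal part minus the proximal part was 0.03 in tumor 1, -0.05 in tumor 2, 0.06 in tumor 3, -0.01 in tumor 4, 0.01 in tumor 5, 0.04 in tumor 6, -0.14 in tumor 7 and -0.09 in tumor 8. It averaged -0.02 ± 0.07 (SD, n = 8) and was above 0 in 4 of 8 tumors, and the two-sided exact permutation p from sign flips was 0.50, adjusted 1. The pattern subtracted beforehand holds the median of the 8 arrays at each probe, so a mean near 0 on this scale follows in part from the subtraction and says little about the tumors as a group. The mean with the pattern kept was -0.04 ± 0.07 (SD, n = 8) and was above 0 in 3 of 8 tumors (exact permutation p 0.15, adjusted 0.20). With the principal component subtracted, every tumor lay between -0.02 and 0.01, which also follows in part from that subtraction.

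In windows of 10 Mb, counted from position 0 on mm9, the level of tumor 5 lay between 0.67 and 0.71 in all 11 windows. Tumor 6 had 0.34 to 0.43, tumor 4 had 0.28 to 0.34, tumor 8 had 0.23 to 0.43, tumor 3 had 0.20 to 0.32 and tumor 2 had 0.07 to 0.18. The lowest window of tumor 3 was the first, which holds its first stretch. Tumor 1 had -0.05 to 0.01 and tumor 7 had -0.21 to 0.08. Relative to the chromosome mean of the same tumor, the windows averaged -0.02 to 0.02 over the 8 tumors, a narrow range that the subtraction of the pattern sets in part. With the pattern kept, a comparison added after seeing the data, they averaged -0.06 to 0.07. The lowest of these was the window from 80000001 to 90000000, below 0 in 7 of 8 tumors, and the highest was the first window, above 0 in 7 of 8 tumors.

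**Figure D4:**
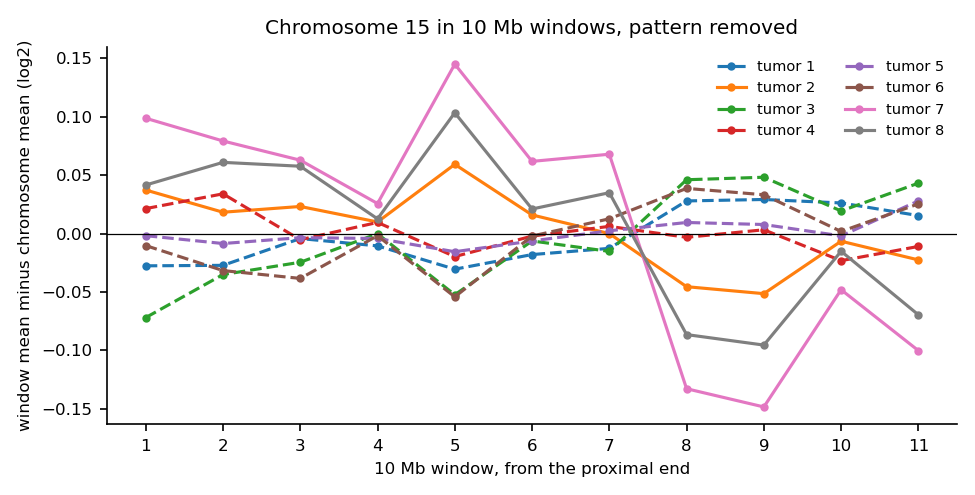
Log2 ratio of each 10 Mb window of chromosome 15 minus the chromosome mean of the same tumor, with the pattern removed. The horizontal axis is the number of the window, counted from the proximal end, and each line is a tumor. Tumor 7 runs from -0.15 to 0.15 and tumor 8 from -0.10 to 0.10, and tumors 1 to 6 stay between -0.07 and 0.06.

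Whether any 1 Mb bin lay off its chromosome mean in the tumors as a group was tested with limma against a log2 size of 0.1, over 2531 bins. With the pattern removed, 0 bins of 101 on chromosome 15 and 0% of all bins were called in either direction, and 0 had an unadjusted p under 0.05. Such a result follows in part from the subtraction, which takes out what most arrays share. With the pattern kept, 3 of 101 bins lay above the chromosome mean, against 2.49% of all bins, and 2 lay below it, against 2.37%. These shares are near the background. Without the log2 size, limma called 28 of 101 bins above the mean, against 27.5% of all bins, and 26 below it, against 25%.

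The bin with the largest difference, from 45000001 to 46000000 with 33 probes, was 0.33 ± 0.06 above the chromosome mean (SD, n = 8; limma adjusted p = 0.00013). It was 0.27 in tumor 1, 0.40 in tumor 2, 0.28 in tumor 3, 0.30 in tumor 4, 0.30 in tumor 5, 0.27 in tumor 6, 0.40 in tumor 7 and 0.41 in tumor 8. All 8 tumors were above 0 there, also those in which the chromosome as a whole stood near 0. The bins from 48000001 to 49000000 and from 90000001 to 91000000 were 0.19 ± 0.08 and 0.16 ± 0.03 above the mean (limma adjusted p = 0.033 and 0.019). The bins from 31000001 to 32000000 and from 75000001 to 76000000 differed from the mean by -0.20 ± 0.06 and -0.19 ± 0.04 (limma adjusted p = 0.0075 and 0.0036). In each of these bins all 8 tumors had the same sign. A shift shared by all arrays against 1 pool cannot be told apart from a property of the probes, the dyes or the pool.

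The arrays lay on 2 slides, tumors 1 to 4 on the first and tumors 5 to 8 on the second, and each slide was 1 scan. With the pattern removed, chromosome 15 averaged 0.34 ± 0.31 on slide 2 and 0.17 ± 0.15 on slide 1 (SD, n = 4 each), and the exact permutation p over 70 splits was 0.37. On array medians the slides gave 0.45 ± 0.31 on slide 2 and 0.35 ± 0.14 on slide 1 (SD, n = 4 each). Tumors with the chromosome high and tumors with it near 0 were on both slides.

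In tumors 2, 4, 5, 6 and 8, with the pattern removed, there were 0 steps or only steps of under 0.2, so the raised level spanned the probed length. In tumor 3 it spanned all but the first stretch. With the pattern kept, tumor 2 had a low stretch inside the chromosome, but the bins there also lay below their chromosome mean on average over all tumors. The RefSeq table of another build, GRCm38.p6, holds 1775 genes on chromosome 15, of which 776 code for proteins, and all 51 genes of 4 lists drawn up for this chromosome are among them. Only their order was taken from it. Of the 23 genes of growth and cancer, the first from the centromere is Ghr, the growth hormone receptor, followed by Rictor, a core subunit of the mTORC2 kinase complex. Osmr, Lifr, Il7r and Prlr, which encode cytokine or hormone receptors, come next. Further out lie Mtdh, which is overexpressed in human liver cancer, and Myc with its neighbour Pvt1, a long noncoding RNA, and then Ptk2, which encodes focal adhesion kinase. Wnt10b and Wnt1, ligands of the Wnt pathway, lie near the distal end.

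The chromosome also carries genes that act against tumor growth or in DNA repair, so an extra chromosome 15 would raise their dose along with that of Myc. Of 10 tumor suppressor and chromatin genes, Stk3 encodes a kinase of the Hippo pathway, Ep300 an acetyltransferase of histones, Arid2 a subunit of a chromatin remodelling complex and Kmt2d a methyltransferase of histone H3. Of 7 genes of genome maintenance, Rad21 encodes a cohesin subunit, Xrcc6 the Ku70 protein of double-strand break repair, and Espl1, the most distal of the 51, separase, the protease that cleaves cohesin. The 11 genes of liver metabolism include Sqle of sterol synthesis, Dgat1 of triglyceride synthesis, Gpt, which encodes alanine aminotransferase, and Ppara, a nuclear receptor that drives fatty acid oxidation. Expression was not measured, and the values say nothing of the activity of any gene.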

How the data were processed

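The authors scanned the arrays and extracted them with Agilent Feature Extraction 10.7.3.1, per the submitters' processing notes. Per the file headers, the deposited processed signals are intensity values from which background had been subtracted, with detrending and a linear correction for dye, array by array. Per the file headers, the log ratios are log10 of red (tumor) over green (pool), and probe positions are on mm9. The deposited medians of spot and background pixels are intensity values with no such steps, and the deposited quality marks, of the kind other, are 0 or 1. Columns of the deposited table are rounded log10 ratios that differed from the scanner files by at most 0.0050, with medians of -0.024 to -0.0076, so they are not centred.

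The log2 ratio of tumor over pool was computed from the processed signals, spots marked as outliers were left out (4 to 13 per array on chromosome 15), and spots of a probe were averaged. For the shared pattern, chromosome medians were taken off each array and every probe's median across the arrays was kept. It was scaled to each array by its slope (0.57 in tumor 7, 0.60 in tumor 8 and 1.03 to 1.08 in tumors 1 to 6) and subtracted. Segments came from circular binary segmentation in Python 3.11.15 with numba 0.67.0 (split statistic 6, at least 5 probes, values limited to 4 noise SD, neighbours merged under 0.1 in log2 or a z of 5). The segmentation was tried on simulated probes with independent noise, flat or with a single step like that of tumor 3 in size and place. Variation shared over long stretches, as in the profiles here, was not simulated. The commonest segment level was then set to 0. Bins of 1 Mb held at least 10 probes, 101 on chromosome 15 and 2531 in all. Chromosome values were tested with two-sided exact sign-flip permutation tests over 8 tumors, adjusted by Benjamini-Hochberg over 20 chromosomes at 0.05. Bins were tested with limma 3.58.1 in R 4.3.3 (an intercept, treat at 0.1). Normexp (offset 50) used the median signals, as the files analysed here give no mean signals. Copies were computed as 2 times the linear ratio, less 2.

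The text names steps of at least 0.2, up to 12, the highest and lowest segment where a tumor had several, each 10 Mb window by its range, called bins, and listed genes by order only. The members, lists, tests and thresholds were chosen with earlier results of these data known.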

Additional observations from a re-analysis of the deposited data

Results flagged for a closer look

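Of 21 sets of 8 tumor values on chromosome 15, 3 held a tumor whose gap to its nearest neighbour was past Dixon's critical value, which by chance marks about 1 set in 20. The step density of tumor 7, 18.9 per 100 Mb, stood apart from the next highest, 1.99. The first 1.42 Mb minus the rest of the chromosome stood apart in tumor 3, at -0.27 with the pattern removed, where the next lowest was -0.03. The same difference on array medians was -0.21 in tumor 3, where the next lowest was 0.03. The last 2 are the same stretch on both scales. Its borders were picked from tumor 3, so that this tumor stands apart there was set by the choice, and the comparison with chance does not apply to it.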

How the results depend on the processing

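The chromosome 15 mean with the pattern removed (0.17 to 0.34) and its difference from the other autosomes (0.18 to 0.35) kept their sign and stayed uncalled under all 10 alternatives tried for each. The mean on array medians lost its call with normexp (0.35, adjusted exact permutation p 0.078), with medians over probes (0.29, adjusted 0.16), within slide 1 (0.35) and slide 2 (0.45), where the smallest exact p is 0.13, and without tumors 7 and 8 (0.46). The distal minus proximal difference turned to 0.0069 within slide 1. The number of steps, 22, became 35 at a split statistic of 5, 14 at 8, 9 with steps under 0.15 merged, 1 without tumors 7 and 8, and 11 with the principal component removed. The difference in step density from the other autosomes turned to 0.84 with the pattern kept, 0.54 with normexp and 0.043 at a split statistic of 8. The difference in bin SD turned to -0.0029 with the principal component removed. Bins called off the chromosome mean were 5 with the pattern kept. The first stretch of tumor 3 minus the rest was -0.21 with the pattern kept. The cause of these shifts was not tested. Leaving out each tumor in turn gave 0.35 to 0.45 for the mean on array medians, 0.19 to 0.29 with the pattern removed, 0.21 to 0.31 relative to the other autosomes, -0.02 to -0.01 for the distal minus proximal difference, 4 (without tumor 7) to 25 steps, -1.57 to -0.63 for step density, 0.0033 to 0.0071 for bin SD, 0 called bins, and 0.05 to 0.29 for slide 2 minus slide 1. No paired analysis was possible because the tumors form 1 group against a common pool. Steps under 0.1 in log2 were merged by the settings chosen, and segments under 5 probes were not called, so smaller or shorter changes are not described.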
